A study of Mus musculus with 4 samples.

Results

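The 10 genes here were grouped for testosterone synthesis and hormone output in Leydig cells, the endocrine cells between the seminiferous tubules of the testis. They were chosen by name, as Star, Cyp11a1, Cyp17a1, Hsd3b1, Hsd3b6, Hsd17b3, Insl3, Lhcgr, Fdx1 and Fabp3. All 10 had a row among the 25265 genes of the deposited count table, and all 10 passed the filter on low counts and were among the 21132 genes tested. The RNA came from whole testes of C57BL/6 mice at postnatal day 56, as 2 libraries with the label control and 2 with the label Ythdf2-vKO, called vKO-labelled here. The series title describes a germ cell-specific mutation of Ythdf2, whose product binds N6-methyladenosine in RNA. The labels do not give the Cre driver, the deleted exons or the genotype of the controls beyond that word. They do not name the animal behind a library either, so p-values measure only the spread between these libraries. Leydig cells are somatic cells, so the title does not place the mutation in them.

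Luteinizing hormone acts through its receptor, cyclic AMP and protein kinase A to start steroid synthesis in Leydig cells. Cholesterol is then moved into mitochondria, cleaved to pregnenolone there, and converted to testosterone by enzymes of the endoplasmic reticulum. The same cells secrete insulin-like peptide INSL3, a marker of mature Leydig cells that drives descent of the testis in the fetus. In the adult mouse testis, Hsd3b6 and Hsd17b3 are known from the adult population of Leydig cells.

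Total counts lay between 24862518 and 29561182 per library. The libraries of a group were not copies of each other, since the chi-square statistic per degree of freedom was 21.17 for the control pair and 8.415 for the vKO-labelled pair. The targeted gene Ythdf2 had 1193 and 1604 counts in control against 1774 and 1807 in the vKO-labelled libraries. It gave 52.3 ± 1.74 and 66.6 ± 0.502 CPM (counts relative to the TMM-scaled library size, SD, n = 2 each) and so was not lower where the label names its loss. The processed pseudogenes Gm6823 and Gm8401 on chromosome X match its transcript at 95.2% and 96.3% identity and had no row among the counts. Directions are therefore those of the vKO-labelled libraries relative to the control-labelled ones. The fit called 83 of the 21132 genes at an adjusted p under 0.05, which is 0.393% of them, with 59 higher and 24 lower. The higher share of the calls was 71.1%, against 83% when libraries were scaled by their totals alone, 56.9% with an offset for GC content, and 47.3% with that offset and the replicate number as a block.

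The Hsd3b1 and Hsd3b6 transcripts are shown first, because the results turn on how this pair of neighbouring genes differs and because parts of their messages are identical. Both encode hydroxysteroid dehydrogenase isomerases, which convert pregnenolone to progesterone. Hsd3b1 (ENSMUSG00000027871) lies on the minus strand at chr3:98852194-98859794 and Hsd3b6 (ENSMUSG00000027869) on the minus strand at chr3:98805504-98814443, in mouse build GRCm38 with GENCODE M21 annotation. Their coding sequences have 1122 nt each and are identical at 1010 positions, or 90%. The longest identical stretch is 72 nt. The lines give coding positions 210 to 361 of each gene from the M21 transcripts, around that stretch, with the 8 differing bases in capitals.
Hsd3b1: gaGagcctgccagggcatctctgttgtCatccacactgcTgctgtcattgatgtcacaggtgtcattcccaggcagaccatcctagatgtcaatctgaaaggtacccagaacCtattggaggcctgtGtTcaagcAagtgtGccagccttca
Hsd3b6: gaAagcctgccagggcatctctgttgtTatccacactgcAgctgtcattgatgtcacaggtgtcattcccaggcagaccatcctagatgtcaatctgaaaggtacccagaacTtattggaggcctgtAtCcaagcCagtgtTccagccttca
A read within the lower-case stretch could come from either gene, and how the counting treated such reads is not given in the sources used here. Counts of both genes are therefore uncertain to that extent. A closer relative, Hsd3b2, is 94.4% identical to Hsd3b6 over the coding sequence and had between 7 and 14 counts per library. Hsd3b3 matches 1491 nt of the Hsd3b6 transcript at 93.9% identity and 1294 nt of the Hsd3b1 transcript at 87.3%. It had no row among the counts.

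The start regions of the same pair are less alike and are shown with that of Insl3, the most abundant member per length. They are RefSeq promoter windows of build GRCm38.p6, with 250 bases before and 50 after the start, for Hsd3b1 at chr3:98859745-98860044 on the minus strand, Hsd3b6 at chr3:98814394-98814693 on the minus strand and Insl3 at chr8:71689002-71689301 on the plus strand. Capitals mark a GATA-type element, searched as AGATAA or TGATAA on both strands.
Hsd3b1: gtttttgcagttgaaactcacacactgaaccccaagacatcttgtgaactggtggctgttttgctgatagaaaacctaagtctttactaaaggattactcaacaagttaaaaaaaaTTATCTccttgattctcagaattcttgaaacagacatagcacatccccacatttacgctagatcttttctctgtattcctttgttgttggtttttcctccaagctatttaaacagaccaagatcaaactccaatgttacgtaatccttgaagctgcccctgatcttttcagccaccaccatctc
Hsd3b6: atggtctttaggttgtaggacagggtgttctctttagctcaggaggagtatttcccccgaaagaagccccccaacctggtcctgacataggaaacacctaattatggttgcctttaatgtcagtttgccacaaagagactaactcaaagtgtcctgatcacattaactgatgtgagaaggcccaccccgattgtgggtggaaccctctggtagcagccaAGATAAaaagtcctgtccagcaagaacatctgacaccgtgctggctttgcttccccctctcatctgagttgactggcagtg
Insl3: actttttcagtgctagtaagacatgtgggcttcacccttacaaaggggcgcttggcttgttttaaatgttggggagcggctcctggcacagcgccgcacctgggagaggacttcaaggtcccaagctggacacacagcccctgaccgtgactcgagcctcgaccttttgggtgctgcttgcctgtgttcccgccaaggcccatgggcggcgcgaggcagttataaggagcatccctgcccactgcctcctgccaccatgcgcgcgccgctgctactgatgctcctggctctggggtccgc
The element begins 134 bases before the start in Hsd3b1, on the opposite strand, and 31 bases before it in Hsd3b6. It was found in 3 of 9 windows of the 8 members with a RefSeq window, the third being Fdx1, and in 18.6% of all 32851 promoter windows. The letters AAGGNCA, the core of sites for steroidogenic factor SF-1, were searched on both strands and occurred in 0 of these 9 windows and in 20.3% of all windows. Star and Cyp17a1 had no window. The windows of Cyp11a1, at chr9:57997774-57998073 and chr9:58014702-58015001, lay away from its M21 gene start at 58006411. Both searches describe these windows only.

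By Benjamini-Hochberg adjusted p from edgeR, 0 of the 10 genes were called, while 0.393% of all genes were, and a DESeq2 Wald test on the same counts called 0 of them too. Of the 10 genes, 9 had a positive log2 fold change, with a median of 0.38 against 0.0027 over all genes tested. The exception, Hsd3b6, was positive too when library totals alone set the scale. In 6 genes (Star, Cyp11a1, Hsd17b3, Insl3, Lhcgr and Fabp3) both libraries labelled vKO lay above both control libraries, an arrangement found in 22.7% of all genes tested, and in 0 genes did both lie below, against 22.6% of all genes. An unadjusted p under 0.05 with a higher level was found for 5 of the 10, against 7.65% of all genes, and with a lower level for 0, against 6.47%. With 2 libraries against 2, an exact two-sided permutation test of a single value cannot go below p = 0.333. In bulk tissue, a change in the number of cells of a type and a change in RNA per cell cannot be told apart.

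**Figure D1:**
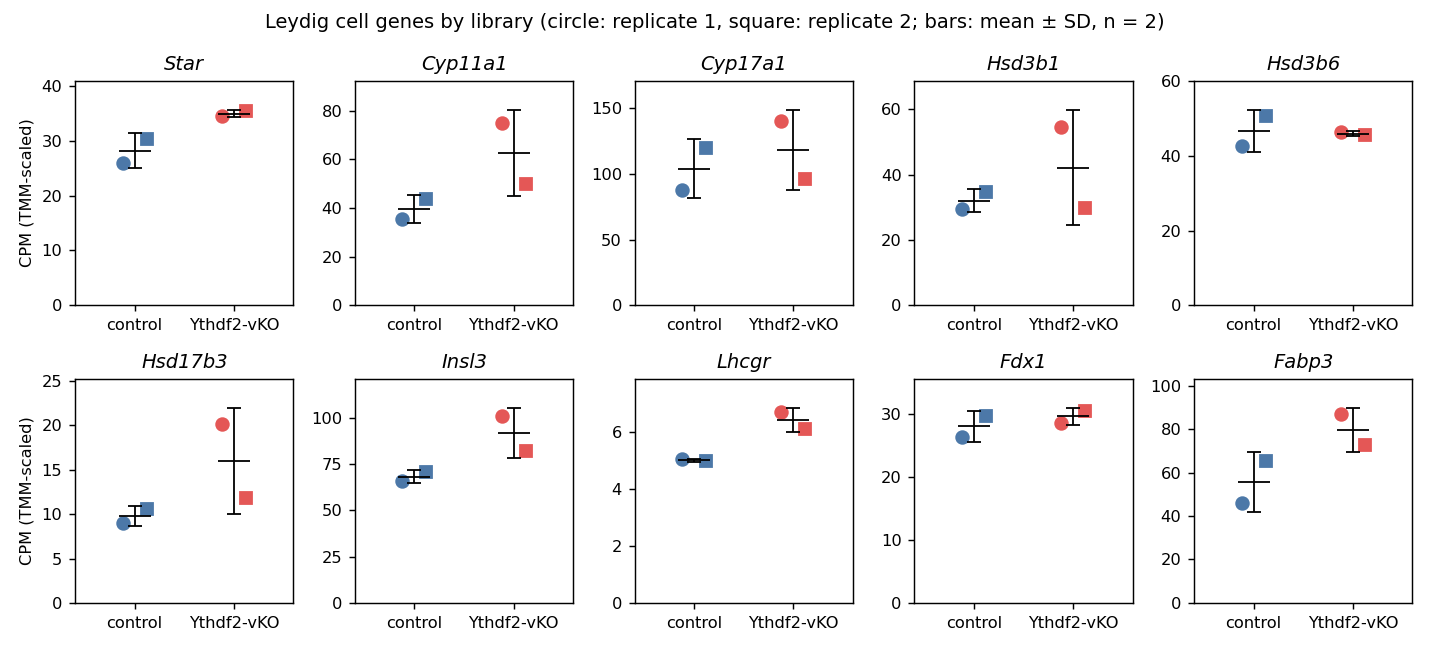
TMM-scaled CPM of each of the 10 genes in the 4 libraries, with circles for replicate 1, squares for replicate 2, blue for control, red for Ythdf2-vKO, and black bars for the mean ± SD (n = 2). Cyp11a1, Hsd3b1 and Hsd17b3 stand high in replicate 1 of the vKO-labelled libraries, at 75, 54.5 and 20.2 CPM, while Hsd3b6 and Fdx1 stay between 42.8 and 50.7 and between 26.3 and 30.5 CPM.

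The receptor that starts the pathway, Lhcgr (ENSMUSG00000024107, chr17:88716481-88791990, minus strand), binds luteinizing hormone at the Leydig cell surface. It was measured at 5.05 and 4.97 CPM in control against 6.72 and 6.12 CPM in the vKO-labelled libraries. The groups did not overlap. The log2 fold change reached 0.36 (SE 0.21, edgeR adjusted p 0.493), on only 118 to 180 counts per library.

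Star (ENSMUSG00000031574, chr8:25806555-25815982, plus strand) encodes the protein that carries cholesterol to the inner mitochondrial membrane, the acutely regulated step of the pathway. Its levels were 25.9 and 30.4 CPM in control against 34.6 and 35.4 CPM in the vKO-labelled libraries. Both of the latter lay above both controls and close together, and the difference was 1.24-fold, a log2 fold change of 0.31 (SE 0.14) at an adjusted p of 0.345. It was 0.20 without control replicate 1.

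Cyp11a1 (ENSMUSG00000032323, chr9:58006411-58027023, plus strand) encodes the cytochrome P450 that cleaves the cholesterol side chain, the first enzymatic step. Its levels were 35.6 and 43.5 CPM in control against 75 and 50 CPM in the vKO-labelled libraries. Replicate 1 of the latter stood far above the other 3 libraries, and replicate 2 only a little above the higher control. Means differed 1.58-fold (log2 fold change 0.66, SE 0.19, adjusted p 0.163). Without replicate 1 of the vKO-labelled libraries the log2 fold change was 0.34 (adjusted p 0.882). It passed the threshold without control replicate 1 (0.51, adjusted p 0.013), without control replicate 2 (0.81, adjusted p 2.63e-05) and without replicate 2 of the vKO-labelled libraries (0.92, adjusted p 0.0213), in fits where a lone library is assumed to vary like the other group. In the authors' deposited table its adjusted p was 0.0733, the lowest of the 10. A long noncoding RNA, Gm17322, overlaps the start of Cyp11a1 on its strand with 145 shared exonic bases, and had between 1 and 15 counts.

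Fdx1 (ENSMUSG00000032051, chr9:51943306-51963556, minus strand) encodes ferredoxin, the small iron-sulfur protein that passes electrons to CYP11A1. It was nearly level, at 26.3 and 29.7 CPM in control against 28.6 and 30.5 CPM in the vKO-labelled libraries. The groups overlapped, with a log2 fold change of 0.08 (SE 0.14) and an adjusted p of 0.864 in edgeR's test. Without control replicate 1 it was -0.01.

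The pair of isomerase genes gave unlike values. Hsd3b1 was measured at 29.5 and 34.6 CPM in control against 54.5 and 29.7 CPM in the vKO-labelled libraries. Of the vKO-labelled libraries, replicate 1 lay above both controls and replicate 2 between them, and the log2 fold change of 0.39 (SE 0.26, adjusted p 0.557) became -0.11 without replicate 1 of the vKO-labelled libraries and 0.76 without replicate 2. Hsd3b6 was measured at 42.8 and 50.7 CPM in control against 46.5 and 45.6 CPM in the vKO-labelled libraries. Both of the latter lay between the controls, and the log2 fold change was -0.02 (SE 0.14, adjusted p 0.966), with a sign that was positive when library totals alone set the scale (0.04) and without control replicate 2 (0.11).

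Cyp17a1 (ENSMUSG00000003555, chr19:46667165-46673172, minus strand) encodes the P450 that turns progesterone into androstenedione. It was the most counted member, with 2046 to 3735 counts per library. Its levels were 87.5 and 120 CPM in control against 140 and 96.4 CPM in the vKO-labelled libraries. The groups overlapped, and the log2 fold change was 0.19 (SE 0.19, adjusted p 0.733). It was -0.03 without control replicate 1 and -0.10 without replicate 1 of the vKO-labelled libraries. It was 0.43 without control replicate 2 (adjusted p 0.0333) and 0.43 without replicate 2 of the vKO-labelled libraries (adjusted p 0.519).

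Hsd17b3 (ENSMUSG00000033122, chr13:64058266-64089230, minus strand) encodes the enzyme that reduces androstenedione to testosterone, the last step. Its levels were 9.03 and 10.6 CPM in control against 20.2 and 11.8 CPM in the vKO-labelled libraries. Replicate 1 of the latter was again far above the rest. The log2 fold change was 0.71 (SE 0.24, adjusted p 0.223), the highest of the 10 members. Leaving out replicate 1 of the vKO-labelled libraries lowered it to 0.27 (adjusted p 0.95). The gene passed the threshold without control replicate 2 (0.83, adjusted p 0.00596) and without replicate 2 of the vKO-labelled libraries (1.04, adjusted p 0.0287).

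Insl3 (ENSMUSG00000079019, chr8:71689214-71690575, plus strand) was measured at 65.6 and 70.8 CPM in control against 101 and 82.1 CPM in the vKO-labelled libraries. The groups did not overlap, and the difference was 1.34-fold, or 0.43 as a log2 fold change (SE 0.14, adjusted p 0.196). Its transcript has 63.6% G and C, higher than 99% of genes tested, and with an offset for GC content the log2 fold change was 0.17 (adjusted p 0.68). With the replicate number as a block it passed the threshold (0.42, adjusted p 0.0301), as it did without control replicate 2 (0.48, adjusted p 0.0183). Without replicate 1 of the vKO-labelled libraries it was 0.27 (adjusted p 0.92). Insl3 lies at the end of Jak3, a cytokine receptor kinase gene on the same strand, and 404 of its 623 exonic bases are also Jak3 exons. Jak3 had 304 and 320 counts in control against 444 and 408 in the vKO-labelled libraries, and how reads in the shared exons were assigned is not given in the sources used here, so the value of Insl3 is uncertain to that extent.

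Fabp3 (ENSMUSG00000028773, chr4:130308595-130315463, plus strand) encodes a cytosolic fatty acid binding protein that is abundant in heart and muscle. Its levels were 45.9 and 65.4 CPM in control against 86.8 and 72.5 CPM in the vKO-labelled libraries. Both of the latter lay above both controls, and control replicate 1 was the lowest library. The log2 fold change was 0.52 (SE 0.17, adjusted p 0.212). It was 0.28 without control replicate 1, and 0.80 without control replicate 2 (adjusted p 1.57e-05). The pseudogene Fabp3-ps1 on chromosome 10 matches 402 nt of the Fabp3 transcript at 99.3% identity and had between 17 and 84 counts, and Zcchc17 shares 81 bases with the end of Fabp3 on the other strand.

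**Figure D2:**
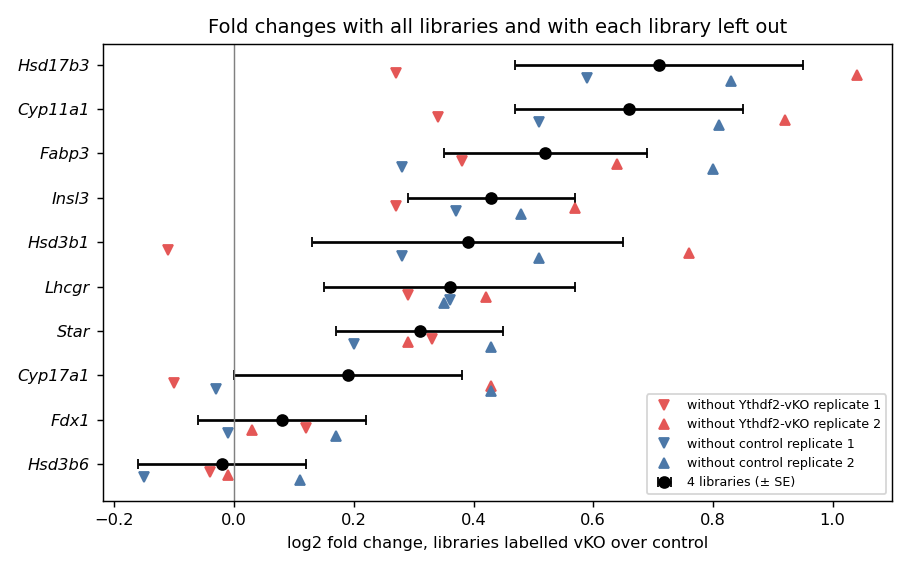
Log2 fold change of each gene between the groups with all 4 libraries (black circles, bars ± SE) and with each library left out in turn (triangles). Leaving out replicate 1 of the vKO-labelled libraries moves Hsd3b1 to -0.11 and Hsd17b3 to 0.27, while Star and Lhcgr stay between 0.20 and 0.43 in each of the 4 fits.

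Replicate 1 of the vKO-labelled libraries exceeded replicate 2 by 0.88 on the log2 scale for Hsd3b1, 0.78 for Hsd17b3, 0.59 for Cyp11a1 and 0.53 for Cyp17a1. Among 12646 genes with a mean of at least 5 CPM, gaps of that size or larger were found in 0.134%, 0.245%, 0.941% and 1.34% of genes. The other members were closer to level, at 0.30 for Insl3, 0.26 for Fabp3, 0.14 for Lhcgr, 0.03 for Hsd3b6, -0.04 for Star and -0.09 for Fdx1. Between the control libraries, replicate 1 was lower than replicate 2 for 9 of the 10 members, with Lhcgr at 0.02 as the exception. The gap was largest for Fabp3 (-0.51) and Cyp17a1 (-0.45), and 2.66% and 3.87% of the 12646 genes lay as low or lower. For the other members below level, this share ran from 11.3% (Cyp11a1) to 30.8% (Insl3). For Lhcgr it was 50.9%, and the median control gap over these genes was 0.02. Thus enzymes at several steps of the pathway stood higher in replicate 1 than in replicate 2 of the vKO-labelled libraries. Star, Fdx1 and Hsd3b6 were nearly level between these replicates.

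Ratios of counts within a library do not depend on its scaling. They were chosen after the values were seen and carry no test. Hsd3b1 had 0.689 and 0.682 counts for each count of Hsd3b6 in the control libraries, with 95% exact binomial (Clopper-Pearson) intervals of 0.625 to 0.76 and 0.63 to 0.739. The ratio was 1.17 (1.09 to 1.27) in replicate 1 of the vKO-labelled libraries and 0.65 (0.594 to 0.712) in replicate 2. The intervals of the other 3 libraries overlapped each other and lay below that of vKO-labelled replicate 1. Hsd17b3 to Hsd3b6 was also highest in that library, at 0.211 and 0.209 in control against 0.436 and 0.259 in the vKO-labelled libraries. The interval of vKO-labelled replicate 2 (0.229 to 0.294) overlapped those of both controls (0.181 to 0.245 and 0.184 to 0.236), and that of replicate 1 (0.393 to 0.482) lay above the rest. Cyp11a1 to Star gave 1.37 and 1.43 in control against 2.17 and 1.41. Insl3 to Star gave 2.53 and 2.33 against 2.93 and 2.32. A different arrangement appeared for Cyp17a1 to Cyp11a1, whose ratio was 2.46 and 2.75 in control against 1.86 and 1.93 in the vKO-labelled libraries. Here both vKO-labelled libraries lay below both controls and were alike within their intervals (1.76 to 1.96 and 1.8 to 2.06). Ratios of the groups were also apart, with higher values in the vKO-labelled libraries, for Hsd17b3 to Hsd3b6 and for Cyp11a1 to Fdx1. The latter gave 1.35 and 1.46 in control against 2.62 and 1.64. Cyp17a1 to Hsd3b6 overlapped, at 2.04 and 2.36 against 3 and 2.11. How often ratios of other gene pairs lie apart was not computed. Intervals cover counting error only, since reads without molecular identifiers are not independent molecules.

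**Figure D3:**
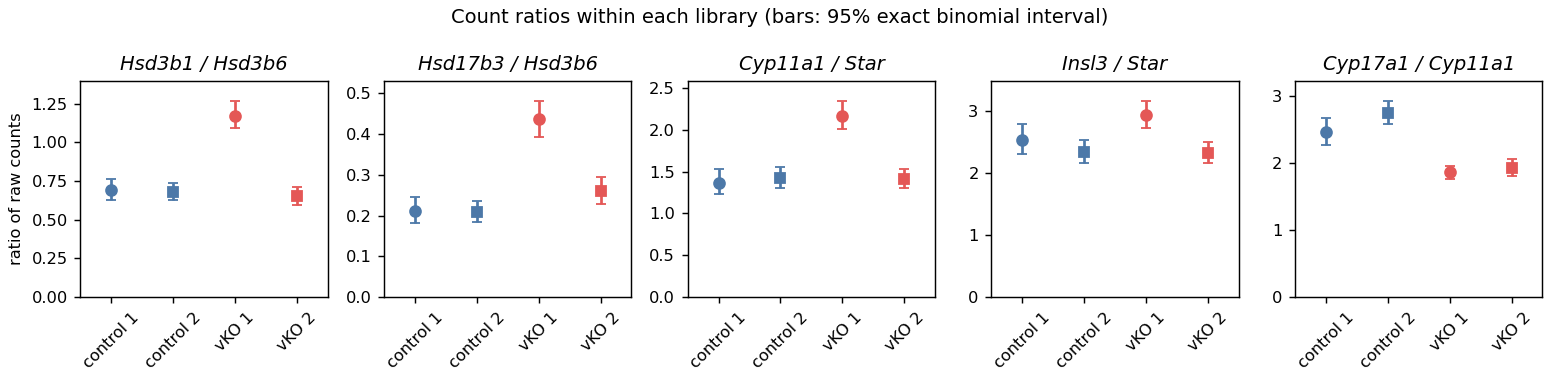
Ratio of raw counts between pairs of member genes within each library, with bars for the 95% exact binomial interval, blue for control and red for Ythdf2-vKO. Hsd3b1 to Hsd3b6 stands at 1.17 in replicate 1 of the vKO-labelled libraries and between 0.65 and 0.689 in the other libraries, while Cyp17a1 to Cyp11a1 is lower in both libraries labelled vKO.

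Levels between genes were compared as CPM per kb of the longest M21 coding transcript, averaged over the 4 libraries. Insl3 led with 128 CPM per kb, followed by Fabp3 (82.2), Cyp17a1 (46.1), Hsd3b6 (25.7), Cyp11a1 (24.1), Hsd3b1 (20), Fdx1 (10.4), Hsd17b3 (10), Star (7.81) and Lhcgr (0.837). The receptor was thus the scarcest transcript, and that of Insl3 was 153-fold more abundant per length. Library values of Insl3 and Fabp3 met only at their edges (105 to 162 and 55.7 to 105), and those of Fabp3 overlapped with those of Cyp17a1 (36.4 to 58.1). Hsd3b6, Cyp11a1 and Hsd3b1 overlapped from one to the next in this order, as did Fdx1, Hsd17b3 and Star. Steps without overlap lay between Cyp17a1 and Hsd3b6, between Hsd3b1 and Fdx1, and between Star and Lhcgr.

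The median GC content of the members was 49.1%, the same as over all genes tested, and ranged from 41.9% in Lhcgr to 63.6% in Insl3. Transcripts ran from 623 nt to 6828 nt. GGACT, a common form of the sequence in which N6-methyladenosine is placed, occurred in the longest transcript of 8 of the 10 genes and of 85.3% of genes tested. It was not found in that of Hsd3b1 or Insl3, and was densest in Fdx1 at 1.81 per kb. A match says nothing of whether the base is methylated.

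Among the 12636 other genes with a mean of at least 5 CPM, the closest to the mean profile of the 10 members, by Euclidean distance of centred log2 CPM over the 4 libraries, were Tulp3 (0.0437), Myh9 (0.048), Aldoc (0.0574), Ehmt1 (0.0638) and Igfbp2 (0.0657). The members' own mean profile was -0.30 and -0.05 in control against 0.34 and 0.01 in the vKO-labelled libraries. Myh9, a heavy chain of nonmuscle myosin, was at 12.6 and 14.9 CPM in control against 20.4 and 15.5 CPM in the vKO-labelled libraries. Over so few libraries many genes take a like profile, and members themselves lay at 0.12 (Insl3) to 0.441 (Hsd17b3) from it.

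The other genes of the pathway are given by lists of known function. LH signalling had 0 of 16 tested genes called, against 0.393% of all genes. An unadjusted p under 0.05 was reached by 1 with a higher and 1 with a lower level. Over all genes tested these shares were 7.65% and 6.47%. Gnas, the stimulatory G protein subunit downstream of the receptor, was at 100 and 92.8 CPM in control against 132 and 126 CPM in the vKO-labelled libraries (log2 fold change 0.42, adjusted p 0.161). Prkar2a, a regulatory subunit of protein kinase A, had the lowest value (-0.38, adjusted p 0.232) and Pde8b, a cyclic AMP phosphodiesterase, the highest (0.44, adjusted p 0.429). Of 18 genes of cholesterol uptake, storage and mobilisation, 0 were called. An unadjusted p under 0.05 was reached by 3, all with higher levels, against 7.65% of all genes. The list had a median log2 fold change of 0.10. Lipa, the lysosomal acid lipase that frees cholesterol from esters, went from 5.73 ± 0.296 to 9.56 ± 0.105 CPM (0.74, adjusted p 0.128), while Stard4 had the lowest value of the list (-0.28, adjusted p 0.663).

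Among 6 electron donors 0 were called and 2 reached an unadjusted p under 0.05, both with higher levels, against 7.65% of all genes. Por, the reductase that serves CYP17A1, was at 16.9 and 13.9 CPM in control against 27.5 and 22.1 CPM in the vKO-labelled libraries (log2 fold change 0.69, adjusted p 0.106). Fdxr, which passes electrons to ferredoxin, went from 30.7 ± 1.79 to 39.3 ± 0.558 CPM (0.36, adjusted p 0.256), and Cyb5r3 had the lowest value (-0.10). Por passed the threshold with library totals alone (adjusted p 0.0416), with the replicate block (0.00472 as the adjusted p) and without control replicate 1 (adjusted p 0.000764). It did not pass without control replicate 2 (adjusted p 0.0502), nor without replicate 1 or replicate 2 of the vKO-labelled libraries (adjusted p 0.716 and 0.0765). Of 14 tested genes for other steroid enzymes, 0 were called. An unadjusted p under 0.05 was found for 2 of these enzyme genes, both with higher levels, against 7.65% of all genes. Values of the list ran from Hsd17b10 (0.60, adjusted p 0.229) down to Hsd17b7 (-0.30, adjusted p 0.744) among genes of at least 1 CPM.

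Of 15 tested transcription regulators of Leydig cells, 0 were called. Groups were apart with higher levels for 8 (against 22.7% of all genes) and with lower levels for 1 (against 22.6%). Nr5a1 encodes steroidogenic factor SF-1, the nuclear receptor that activates many steroidogenic genes in Leydig, Sertoli and adrenal cells. Its levels were 25.5 and 26 CPM in control against 41 and 38.1 CPM in the vKO-labelled libraries. Both groups were tight and well apart, at 1.53-fold (log2 fold change 0.62, SE 0.14, edgeR adjusted p 0.0769). Its adjusted p was 0.0276 in a DESeq2 Wald test, 0.0353 with library totals alone, 0.00358 with the replicate block and 0.194 with the GC offset, where its log2 fold change was 0.42. It was also under the threshold without control replicate 1 (adjusted p 0.00831) and without control replicate 2 (adjusted p 0.007), but not without replicate 1 or replicate 2 of the vKO-labelled libraries (adjusted p 0.548 and 0.167). Lhx9 had the lowest value of the list, from 2.34 ± 0.465 to 1.27 ± 0.375 CPM (-0.89, adjusted p 0.295).

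Other genes used as Leydig cell markers held 1 call among 11 tested, against 0.279% of all genes called higher. Vcam1, an adhesion molecule of Leydig and endothelial cells, rose from 35.6 and 42.6 CPM in control to 70.1 and 64.5 CPM in the vKO-labelled libraries. The log2 fold change was 0.78 (SE 0.14, adjusted p 0.0326), and the call was lost without replicate 1 of the vKO-labelled libraries (0.72, adjusted p 0.243). Pdgfra, the receptor of platelet-derived growth factor A carried by Leydig precursors and other stromal cells, was at 5.22 and 8.74 CPM in control against 14.9 and 14.3 CPM in the vKO-labelled libraries (1.05, adjusted p 0.0725). It was 0.73 without control replicate 1 (adjusted p 0.0169) and 1.48 without control replicate 2 (adjusted p 2.5e-07), and passed the threshold with the GC offset (adjusted p 0.0353), library totals alone (0.0332 as the adjusted p), a DESeq2 Wald test (adjusted p 0.0105) and the replicate block (adjusted p 0.00153). It did not pass without replicate 1 or replicate 2 of the vKO-labelled libraries (adjusted p 0.241 and 0.0734). All 11 genes had a positive log2 fold change, down to 0.10 for Inha, and 10 of 11 did with the GC offset.

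Genes that receive the Leydig hormones were read next. Of 11 genes of hormone reception and of androgen response in Sertoli cells, 1 was called higher (against 0.279% of all genes) and 6 had groups apart with higher levels (against 22.7%). Gpd1, a glycerol phosphate dehydrogenase, rose from 22.5 ± 0.308 to 38.9 ± 1.94 CPM (log2 fold change 0.79, SE 0.14, adjusted p 0.0297), and was not called without replicate 1 or without replicate 2 of the vKO-labelled libraries (adjusted p 0.102 and 0.108). Rhox5, a homeobox gene of Sertoli cells that depends on androgen, was at 13 and 13.4 CPM in control against 18.7 and 18.3 CPM in the vKO-labelled libraries (0.48, adjusted p 0.196). The INSL3 receptor gene Rxfp2 was at 13 and 14 CPM in control against 11 and 12 CPM in the vKO-labelled libraries (-0.24, adjusted p 0.579). Cldn3, a claudin, had the lowest value of this list (-0.46, adjusted p 0.549).

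Markers of other testis cells also differed between libraries. Levels summed over the 8 Leydig cell markers, all members, were 301 and 365 CPM in control against 478 and 357 CPM in vKO-labelled libraries. Cyp17a1 gave 87.5 and 120 against 140 and 96.4 CPM of this, and Insl3 65.6 and 70.8 against 101 and 82.1 CPM. Cyp11a1, Cyp17a1, Hsd3b1, Hsd17b3 and Insl3 were each highest in vKO-labelled replicate 1 and lowest in control replicate 1. Star was highest in vKO-labelled replicate 2 (35.4 CPM), Hsd3b6 in control replicate 2 (50.7 CPM), and Lhcgr was lowest in control replicate 2 (4.97 CPM). The 12 Sertoli cell markers summed to at most 1280 CPM in control and at least 1580 CPM in the vKO-labelled libraries, with 12 of 12 positive under each scaling. Of these sums, Clu alone gave 658 and 715 CPM in control against 934 and 801 CPM in the vKO-labelled libraries. Of the 12 markers, 11 were apart and higher, against 22.7% of all genes. Among them 1 was called, against 0.279%, namely Wt1 (0.71, adjusted p 0.0418). Wt1 was not called without robust estimation (adjusted p 0.0501), nor without replicate 1 or replicate 2 of the vKO-labelled libraries (adjusted p 0.338 and 0.0824). The 6 peritubular myoid markers summed to 52.7 and 85 CPM in control against 88.7 and 63.4 CPM in the vKO-labelled libraries. As for the Leydig cell sums, control replicate 1 was lowest and replicate 1 of the vKO-labelled libraries highest. The 10 macrophage markers summed to 59.3 and 99.2 CPM against 91.3 and 75.9, and the 8 endothelial markers to 37.3 and 26.3 against 45 and 38.8. Of the endothelial sums, Vwf alone gave 26.1 and 14.2 CPM in control against 30.8 and 23.5 CPM in the vKO-labelled libraries. Of 10 elongating spermatid markers 1 had a positive log2 fold change (2 with library totals alone, 0 with the GC offset) and the median was -0.27. The 11 spermatogonial markers were all positive (9 with the GC offset) with a median of 0.32. They summed to 159 and 155 CPM in control against 196 and 173 CPM in the vKO-labelled libraries. The median was -0.13 for 11 spermatocyte markers, 0.06 for 9 round spermatid markers and 0.76 for 4 erythrocyte genes. It was -0.40 for 3 tested genes of the epididymis list, where 4 of 8 genes had a row. Defb15 was at 0.853 to 1.3 CPM and Rnase10 at 5.34 to 8.13 CPM. Spink2 was far more abundant, at 174 to 209 CPM, and its cell source was not tested. Of 5 adrenal cortex markers, 2 were measured, and these, Cyp21a1 and Mrap, were low, at 0.813 to 1.46 and 2.1 to 2.85 CPM. The part of these other cells in the levels of the 10 genes was not tested.

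**Figure D4:**
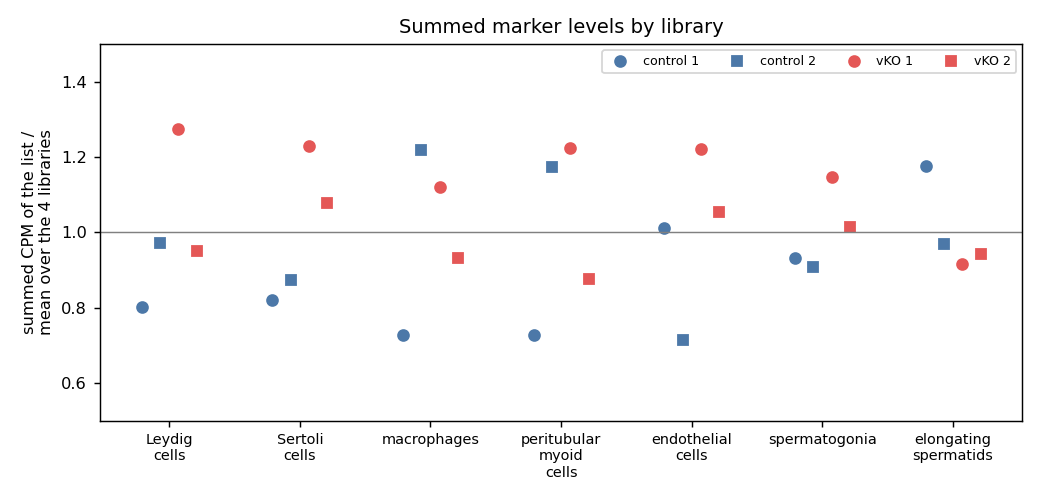
Summed CPM of marker lists in each library, divided by the mean of the 4 libraries, with circles for replicate 1, squares for replicate 2, blue for control and red for Ythdf2-vKO. Leydig cell and peritubular myoid sums are highest in replicate 1 of the vKO-labelled libraries and lowest in control replicate 1. Not each marker of these lists has that order. Sertoli cell, endothelial and spermatogonial sums are higher in both libraries labelled vKO.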

How the data were processed

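Ribosomal RNA-depleted, directional libraries of mouse testis RNA were sequenced, per the labels' protocols. HISAT2 2.1.0 and HTSeq 0.6.1p1 are named, without settings, per the submitters' processing notes; the genome build and the use of strand are not given in the sources used here. The authors deposited raw read counts per gene, and, per the file headers, their mean normalized signal, a log2 fold change with its SE, a test score and p-values in the form DESeq2 writes. The table holds no gene with fewer than 10 counts in all.

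Counts were fitted with edgeR 4.0.16 (limma 3.58.1, R 4.3.3): TMM scaling, the filterByExpr filter, robust quasi-likelihood dispersions, genotype as the single term, prior count 0.125, two-sided F test, Benjamini-Hochberg adjustment over 21132 genes, call at an adjusted p under 0.05. SE is the absolute log2 fold change over the square root of F. The fit was tested on simulated counts. Total counts were 24862518, 29561182, 26298245 and 26265700. Identifiers found in GENCODE M21 numbered 25261 of 25265. Copies were searched with BLAST 2.17.0, at 85% identity or more over 200 nt. Alternatives were DESeq2 1.42.0 size factors and Wald test, library totals, other filters, no robust estimation, prior count 2, replicate block, GC offset, a log2 fold change of at least 1, and each library left out.

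The members and lists were chosen with earlier results of these data known. Named genes were the members, Ythdf2, any called gene of a list, the highest and lowest value of each pathway list at 1 CPM or more, overlapping genes and copies, and the 5 genes closest in pattern. The copies Gm12427 (of Hsd3b1) and Gm14565 (of Lhcgr) and the Fabp3 overlap Gm10570 had no counts and were not described further. Gnas, Rhox5, Rxfp2, Fabp9, Clu, Vwf and the epididymal and adrenal markers were named after their values were seen.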

Additional observations from a re-analysis of the deposited data

How the results depend on the processing

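The median log2 fold change of the 10 members was 0.38 and stayed between 0.34 and 0.44 under each scaling, filter, test, offset and block. Of all genes, 59 were called higher and 24 lower. Counts were 181 and 37 with library totals alone, 137 and 80 with a DESeq2 Wald test, 50 and 15 without robust estimation, 78 and 59 with the GC offset and 38 and 16 when the log2 fold change had to be 1 or more in size, which passes fewer genes by construction. For the others the cause was not tested. Leaving out each library gave 30 (without vKO-labelled replicate 1) to 1048 (without control replicate 1) genes higher, 5 to 523 lower (without control replicate 2), 0 to 5 members called and a member median of 0.27 to 0.50. Of members, 5 were called without control replicate 2, where 554 genes were higher and 523 lower of 21862, and 0 without vKO-labelled replicate 1, where 30 and 5 of 21918 were. Hsd3b6 changed sign with library totals alone (0.04). With a library left out, signs changed within the ranges of Hsd3b6 (-0.15 to 0.11), Cyp17a1 (-0.10 to 0.43, and -0.03 without control replicate 1), Hsd3b1 (-0.11 to 0.76) and Fdx1 (-0.01 to 0.17).

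Both groups use replicate numbers 1 and 2 with no stated meaning. Deviations of libraries with 1 number correlated at 0.0932. The value for crossed numbers, -0.0932, is fixed by the first in groups of 2 libraries. This cannot decide whether the numbers mark pairs, and the main fit assumed no pairing. The replicate block gave 627 calls higher and 390 lower, with 1 member, Insl3. The block together with the GC offset gave 432 and 481, with 0 members, and Ythdf2 passed the threshold (0.41, adjusted p 0.0162). Among members, depth limits Lhcgr most, with at least 118 counts.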

Other observations

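Some relatives of Insl3 and Fabp3 were measured too. Insl6, a relaxin-family gene of meiotic and post-meiotic germ cells, was at 122 and 128 CPM in control against 98 and 106 CPM in the vKO-labelled libraries, with a log2 fold change of -0.29 (adjusted p 0.304 in edgeR's quasi-likelihood test). Fabp9, the fatty acid binding protein of the sperm head, was at 188 and 188 CPM in control against 152 and 174 CPM in the vKO-labelled libraries (-0.21, adjusted p 0.482). Fabp12 gave -0.23 (adjusted p 0.552). Fabp5, which is widely expressed outside germ cells, was at 4.32 and 6.3 CPM in control against 9.79 and 9.93 CPM in the vKO-labelled libraries (0.88, adjusted p 0.11). Groups did not overlap for Insl6 and Fabp9, with lower levels, and for Fabp5, with higher ones, and edgeR called none of these genes. Such arrangements were found in 22.6% and 22.7% of all genes tested. Of 4 fatty acid binding protein genes tested, 1 reached an unadjusted p under 0.05, with a higher level, against 7.65% of all genes. Of 3 relaxin and insulin family ligands, 1 did so with a lower level, against 6.47%. Insl5 (0.15, adjusted p 0.916) and Isca1 (-0.16, adjusted p 0.616), which the naming rule also set, were not called either.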
